A study of Mus musculus with 12 samples.

Results

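The comparison described here set cells recovered from the first skin lesions of mice given Th2 cells against the Th2 cultures from which such cells are made. Its members are 6 of the 12 samples of the series, chosen by their labels alone: 3 skin preparations of experiment 1 (mouse 1, mouse 3 and mouse 6) and 3 Th2 cultures. The study asks whether T helper cells of a known antigen specificity keep their programme after they have entered the skin in a mouse model of cutaneous lupus. Expression was counted with a panel of probes for immune genes, which reads RNA molecules by hybridisation without amplification.

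The Th2 cultures held CD4+ T cells from DO11 mice, whose transgenic T cell receptor recognises a peptide of ovalbumin (OVA). They were stimulated with OVA-pulsed splenocytes in the presence of IL-4, IL-2 and antibodies to IFN-γ and IL-12 p40, stimulated again after a week and then harvested. Culture 1 belonged to experiment 1 and cultures 2 and 3 to experiment 2, where they came from male and female donors. The skin samples came from sublethally irradiated Ii-TGO recipients fed doxycycline, which make an OVA fusion protein under the invariant chain promoter and so in MHC class II+ cells. The labels do not say which of these recipients lacked TLR9. Skin was taken about week 4, when mouse 1 had a skin score of 1 and mice 3 and 6 a score of 3. It was digested with enzymes, and cells were enriched with CD3 magnetic beads according to the labels, while the methods of the study also describe selection with the KJ1-26 antibody against the DO11 receptor. Each skin sample was 1 mouse. Nothing in the labels shows that cultures 2 and 3 were separate in more than donor sex, so p-values measure the spread between these samples.

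T cells are recognised by the CD3 chains, which carry the signal of the antigen receptor, and by the kinase Lck below them. Th2 cells are driven by the transcription factor Gata3, which activates the genes of IL-4, IL-5 and IL-13, and they sense IL-4 through Il4ra and IL-33 through Il1rl1. Inflamed skin also holds macrophages, which make complement C1q and many chemokines, and fibroblasts, endothelial cells and keratinocytes, so that RNA in a cell preparation from skin can come from any of these.

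The panel read 547 endogenous genes, 14 housekeeping genes, 6 positive and 8 negative controls. Counts were scaled to 7 housekeeping genes, and a gene was taken as detected in a sample above the mean plus 2 SD of that sample's negative controls, called the limit below. The skin samples held far less signal than the cultures: their endogenous counts were 27347 to 131229 against 422557 to 481131, and 163 to 303 genes lay above the limit against 369 to 403. The limit in scaled counts was 242 in mouse 1, 35.7 in mouse 3 and 54.5 in mouse 6, and between 5.42 and 8.41 in the cultures. A low gene could therefore be missed in skin, most of all in mouse 1, and still be read in the cultures. All values below are scaled counts unless another unit is given.

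The marker genes went against the description of the skin samples as T cells. Cd3d, a chain of the CD3 complex, read 116, 38.6 and 37.7 in mice 1, 3 and 6, and 4174, 3888 and 5158 in Th2 cultures 1, 2 and 3. Only the value of mouse 3 lay above its limit, and narrowly. Of 9 values of the chains Cd3d, Cd3e and Cd247 in skin, it was the only one above the limit. In the same samples Ccl8, a chemokine that macrophages make, read 18334, 4439.7 and 7031, and 6.52, 4.45 and 2.98 in the cultures, where it was at or below the limit in all 3. The samples are therefore called first-lesion skin preparations here. Fewer cells of a type and less RNA per cell cannot be told apart in such bulk counts.

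**Figure D1:**
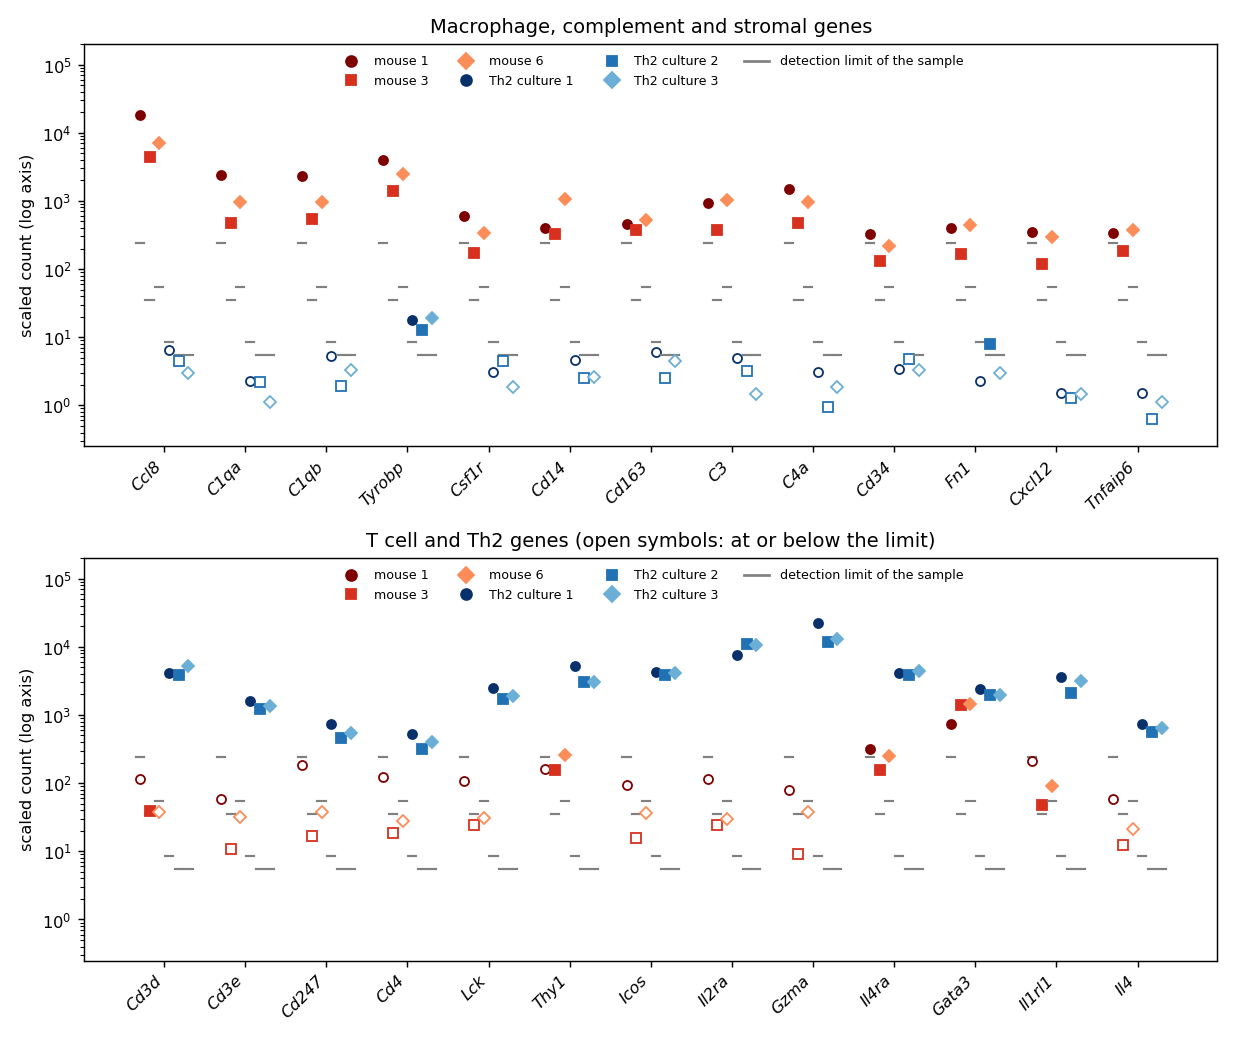
Scaled counts (log axis) of 13 macrophage, complement and stromal genes (upper panel) and 13 T cell and Th2 genes (lower panel) in the 3 first-lesion skin preparations and the 3 Th2 cultures. Each symbol is 1 sample, open where it lay at or below its detection limit, which the grey dash beside it marks. Ccl8 stood at 4439.7 or more in skin and at 6.52 or less in the cultures. Cd3d stood at 116 or less in skin and had a mean of 4406 in the cultures.

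Across the panel, 397 genes were detected in at least 3 of the 6 samples and were tested with edgeR's quasi-likelihood test. After Benjamini-Hochberg adjustment, 237 of them (59.7%) were called at an adjusted p under 0.05, 148 higher in first lesions (37.3%) and 89 lower (22.4%). These shares are the background against which the gene lists below are read. The 2 groups did not overlap in 146 of the 148 and in 86 of the 89. These counts rest on the same values as the calls and add no separate evidence. Of the 148, 102 were above the limit in all 3 skin preparations and 25 of these in no culture. Another 38 were above it in 2 skin preparations and 8 in 0 or 1. Of the 89, 15 were above the limit in all 3 skin preparations and 44 in none. Many of the 547 genes of the panel were above the limit in no skin preparation. Of these, 107 were above it in all 3 cultures, 19 in 2, 21 in 1 and 82 in none. The counts of undetected members in the lists below are to be read beside these. For a gene at or below the limit in a whole group, the fold is given as a lower bound against the mean limit of that group.

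The split depended on the scaling. With TMM factors 103 genes were higher and 179 lower, with DESeq2 size factors 103 and 184, with total counts 181 and 100, and with all 14 housekeeping genes 136 and 103. The median log2 fold change of all tested genes was 0.57, −0.74, −0.77, 0.74 and 0.31 under the 5 scalings in that order, beginning with the 7 housekeeping genes. In all 5, 102 genes were called higher and 89 lower in the same direction, and 75 of the 102 were above the limit in all 3 skin preparations.

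**Figure D2:**
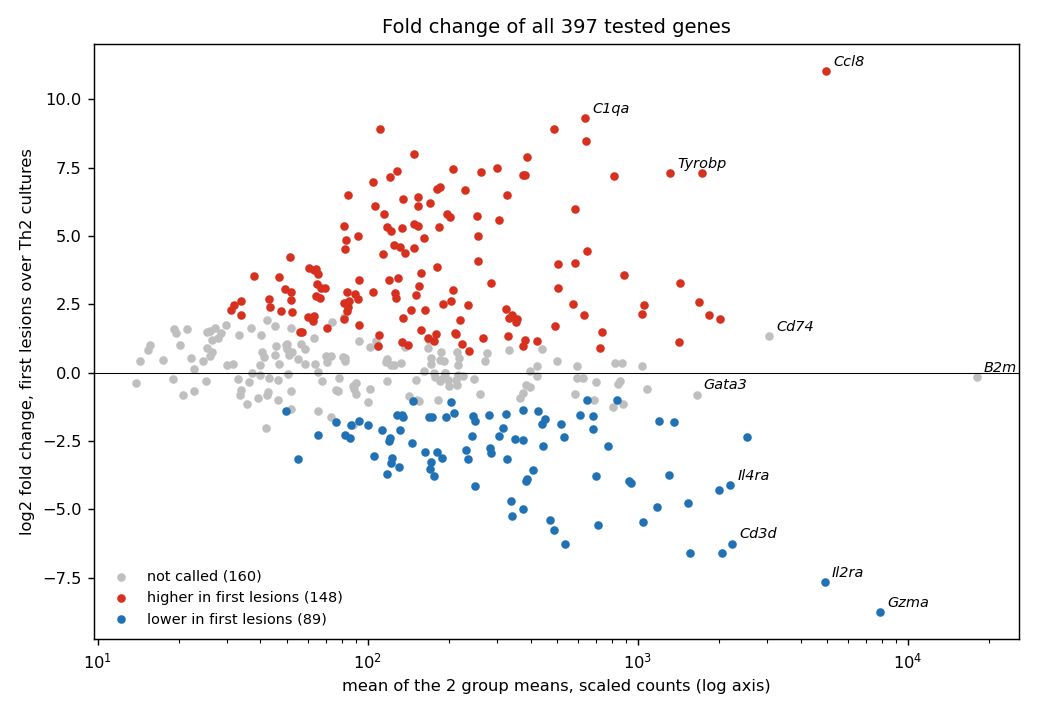
Log2 fold change of first-lesion skin preparations over Th2 cultures (vertical axis) against the mean of both group means in scaled counts (log axis) for the 397 tested genes. Each point is 1 gene; the 148 red genes were called higher and the 89 blue genes lower, with Ccl8 at 11.04 and Gzma at −8.76 at the ends.

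Macrophage and monocyte markers made up the group with the largest shift. Of 28 on the panel, 19 were tested, 16 were called higher and 1, Ccr2, lower. The median of their log2 fold changes was 6.68, or 5.55 with genes at a group's limit set to their bound, where all tested genes had 0.57 and 0.06. Ccl8 was at least 1539.5-fold higher (adjusted p = 1.96e-05). It took 9.24%, 4.67% and 4.55% of all endogenous counts in mice 1, 3 and 6.

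C1qa, a subunit of the C1q that begins the classical complement pathway, read 2388, 468 and 948 in skin and 2.3, 2.23 and 1.12 in the cultures, at least 197-fold higher (adjusted p = 1.99e-05). Its partner C1qb read 2329.9, 549.9 and 953 against 5.37, 1.91 and 3.35. All 3 skin values of each gene lay above the limit and no culture value did. Tyrobp, the adaptor through which myeloid receptors signal, was measurable in every sample. It read 3978, 1398 and 2475 in skin and 17.6, 12.7 and 19.4 in culture, with a log2 fold change of 7.29 ± 0.59 (SE, n = 3 per group, adjusted p = 1.96e-05).

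The other defining genes of these cells followed. Cd14, a co-receptor for bacterial lipopolysaccharide, read 399, 321 and 1067 in skin against 4.6, 2.54 and 2.61 in culture. Csf1r, the receptor for macrophage growth factor, read 595, 169.9 and 333 against 3.07, 4.45 and 1.86. Cd163, the scavenger receptor for haemoglobin, was the most even, with 457, 369 and 531 against 6.14, 2.54 and 4.47. These 3 genes were at least 92.3-fold, 56.7-fold and 70.1-fold higher, and the highest adjusted p among them was 3.13e-05.

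Ccr2, the receptor that brings monocytes out of the marrow and is also found on activated T cells, went the other way. It read 254, 129.8 and 147 in skin and 1469, 529 and 655 in culture (log2 fold change −2.36 ± 0.49, adjusted p = 0.00275). In all, 7 members were above the limit in no skin preparation, among them Itgam and Cx3cr1. Summed over the list, macrophage markers took 20.3%, 10.9% and 12.2% of the endogenous counts of mice 1, 3 and 6, and 0.621% to 1.04% of those of the cultures. These shares do not depend on the scaling.

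Fc receptors and their adaptors moved with them. Of 16 on the panel, 12 were tested, 9 were called higher and 1 lower, with a median of 4.58. Fcgr4, the activating receptor for IgG2a and IgG2b, read 523, 38.6 and 101 in skin against 0.383, 0.318 and 0.373. Mouse 3 stood just above its limit of 35.7, and the bound was 34.2-fold (adjusted p = 0.000218). Fcgr3, another activating receptor, read 443, 105 and 161 against 6.52, 6.36 and 5.59. Lilrb3, an inhibitory receptor of myeloid cells, read 298, 77.2 and 97.8 against 7.67, 6.68 and 4.85. In each of these genes mouse 1 was the highest skin preparation and the groups did not overlap.

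Complement genes were called higher in 12 of 15 tested members, of 29 on the panel, and lower in none, with a median of 5.30. C4a, a form of the C4 component, read 1473, 477 and 967 against 3.07, 0.954 and 1.86, at least 151-fold higher (adjusted p = 1.78e-05). C3, on which all complement pathways converge, read 929, 377 and 1013 against 4.98, 3.18 and 1.49, at least 119.8-fold higher. The terminal components C7, C8b and C9 were above the limit in no sample, and C6 was called higher. With TMM factors or DESeq2 size factors the count was 12 higher and 1 lower.

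Chemokines were called higher in 14 of 16 tested members, of 27, with none lower and a median of 4.62; with TMM factors or DESeq2 size factors 13 were higher and 1 lower. Beside Ccl8, the monocyte attractants Ccl2, Ccl7 and Ccl12 rose, and so did Ccl11 and Ccl24, which attract eosinophils. Cxcl12, made by stromal cells to hold leukocytes through Cxcr4, read 348, 119 and 299 against 1.53, 1.27 and 1.49 (at least 39.6-fold higher). Ccl22 and Ccl25 were tested and not called. Of 20 chemokine receptors 10 were tested, and 4 were called lower and 1, Cmklr1, higher. Cxcr6, the receptor for Cxcl16 on activated T cells, read 152, 46.3 and 50.7 in skin, above the limit in mouse 3 only, and 3084, 1733 and 1979 in culture, a log2 fold change of −4.91 ± 0.59 (adjusted p = 0.000102).

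**Figure D3:**
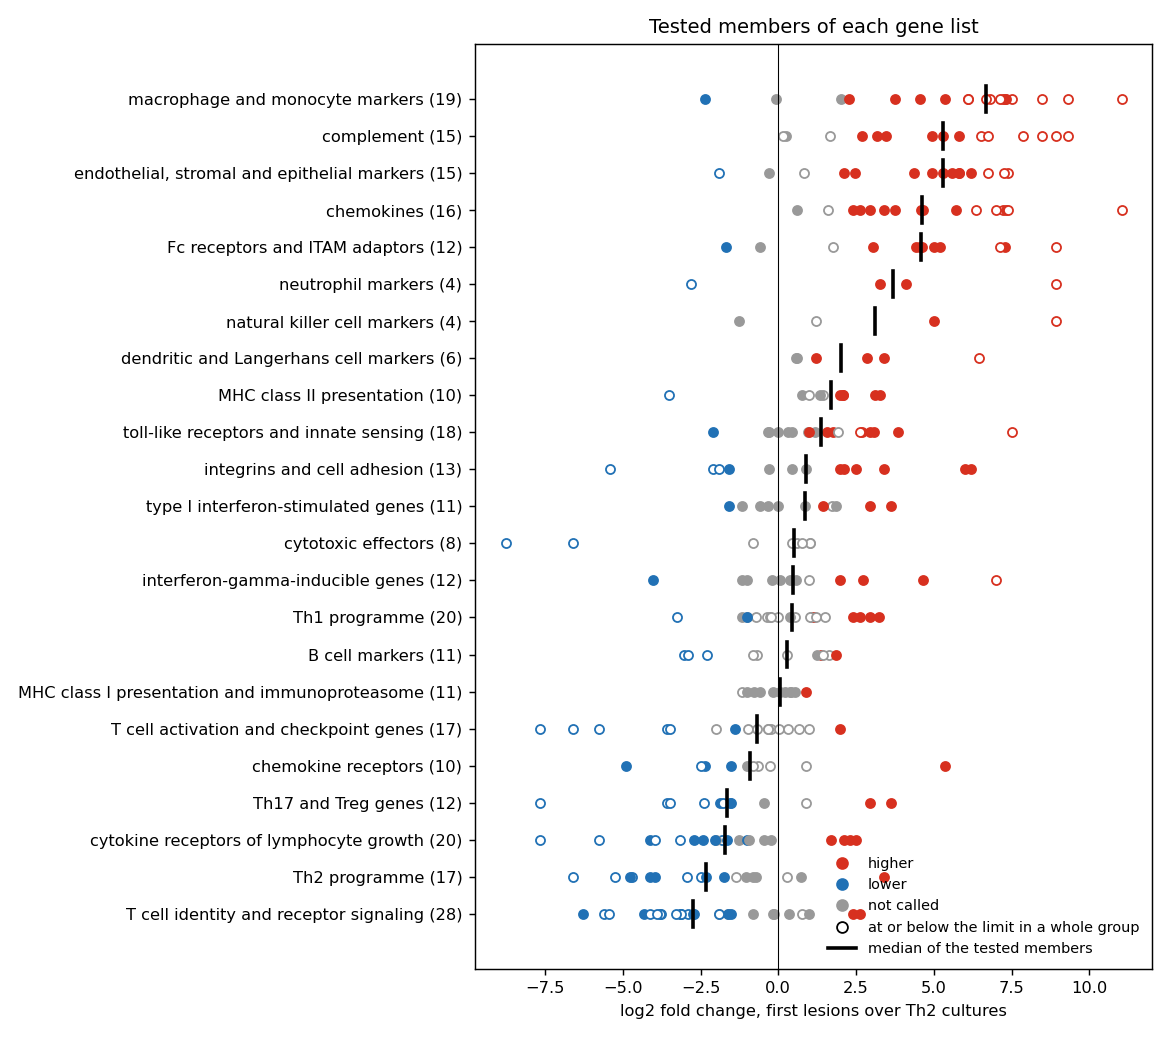
Log2 fold change of first-lesion skin preparations over Th2 cultures for each tested member of 23 gene lists, which share some genes. Points are genes, coloured by call, and open where all samples of 1 group lay at or below the limit; black bars mark the medians, from 6.68 for macrophage and monocyte markers to −2.73 for T cell identity genes.

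Genes of endothelial, stromal and epithelial cells formed the next group. Of 22 on the panel, 15 were tested, 12 were called higher and 1, Icam2, lower, with a median of 5.30. Fn1, the matrix protein fibronectin, read 399, 167 and 443 in skin against 2.3, 7.95 and 2.98 in culture, where culture 2 alone was above its limit (log2 fold change 6.20 ± 0.66, adjusted p = 5.27e-05). Cd34, found on vessels and on fibroblasts, read 327, 133 and 217 against 3.45, 4.77 and 3.35. Clu, the secreted chaperone clusterin, read 298, 576 and 1364 against 5.75, 4.45 and 4.47, with mouse 6 the highest. The list took 2.89%, 3.29% and 3.96% of endogenous counts in mice 1, 3 and 6 and 0.331% to 0.396% in the cultures. The vascular marker Pecam1 overlapped between the groups and was not called, and Cdh5, above the limit in 1 skin preparation, lost its call without mouse 6 and without culture 2 or 3.

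Cd9 and Itgb1 can be made by stromal and epithelial cells as well as by leukocytes. Cd9, a tetraspanin, read 726, 1379.5 and 1355 against 19.9, 15.9 and 18.3 (log2 fold change 6.00 ± 0.45, adjusted p = 1.66e-05). Itgb1, the integrin β1 chain, read 755, 831 and 1334 against 151, 199 and 165 (2.51 ± 0.37, adjusted p = 0.000357). Ltbr, the lymphotoxin receptor of stromal and myeloid cells, read 356, 246 and 298 against 10.7, 5.4 and 5.59. The matching ligand chain Ltb read 36.3, 9.27 and 29.5, below the limit in all 3, against 908, 496 and 764, at least 6.53-fold lower. The genes of the secreted proteins Tnfaip6 and Il1b rose by at least 45.7-fold and 63.5-fold.

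Other leukocytes gave a mixed picture. Of 12 neutrophil markers 4 were tested, and S100a8, S100a9 and Fcgr4 were called higher and Il1r2 lower. In no skin preparation were 7 of the 12 above the limit, among them Il1r2, Csf3r, Cxcr1 and Trem1. S100a8 read 486, 416 and 655 against 33.7, 17.8 and 109. S100a9 read 537, 318 and 595 against 17.6, 14.3 and 52.9. The neutrophil granule genes Camp and Ctsg were above the limit in no sample. S100a8 and S100a9 are also made by inflamed keratinocytes. Of 17 natural killer cell markers 13 were above the limit in no skin preparation, and both mast cell markers, Kit and Fcer1a, were undetected in skin. The 2 higher calls of the natural killer list were Ncam1 and Fcgr4, and Fcgr4 is shared with the neutrophil list.

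B cell markers went in both directions. Of 15 on the panel, 12 were above the limit in no skin preparation. Of 11 tested, 2 were called higher and 3 lower, Ms4a1 and Cd79b among them, where 22.4% of all tested genes were lower. The median was 0.27, or 0 with genes at a group's limit set to their bound. In all 3 cultures, which had been stimulated with splenocytes, 11 were above the limit. Whether the splenocytes held this RNA was not tested. Ms4a1, which encodes CD20, read 65.3, 10.8 and 11.8 in skin and 155, 193 and 198 in the cultures. The calls in the other direction were Blnk and Cd24a, and with TMM factors no B cell marker was higher and 5 were lower. With the experiment as a block, and without mouse 3, mouse 6, culture 2 or culture 3, 1 was lower. Of 8 dendritic cell markers on the panel, Batf3 and Xcr1 were above the limit in no skin preparation. With TMM factors or DESeq2 size factors 3 of the 6 tested were higher and 2 lower. With the 7 housekeeping genes 4 were called higher and none lower. Cd209g led them with 624, 127 and 161 against 3.83, 3.5 and 2.61, and Cd83, the least of them, had an adjusted p of 0.0497, lost its call without mouse 1, without mouse 6 and without any 1 of the cultures, and turned to a log2 fold change of −0.22 with TMM factors.

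Genes of innate sensing were in part called higher, 9 of 18 tested against 1 lower, with a median of 1.36. With genes at a group's limit set to their bound, the median was 0.96. Of the 23 on the panel, 7 were above the limit in no skin preparation. Card9, called higher, was among these 7. Its log2 fold change was 0.084 after subtraction of the negative control mean. With TMM factors 5 were higher and 6 lower. With the experiment as a block 3 were higher, and without culture 2 or without culture 3 there were 5. The higher calls included Tlr4 and its partners Ly96 and Cd14, through which lipopolysaccharide is sensed. Tlr9, the DNA sensor, was above the limit in no skin preparation and was not called.

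The 19 defining markers of other cells were read together in each sample. Of these, 8 were above the limit in all 3 skin preparations, 10 were called higher and 2 lower. In all 3 skin preparations 7 were at or below the limit, among them Ms4a1, Cd79a, Pdgfrb, Fcer1a, Kit and Csf3r. Their summed level was 8139.5 to 30042 in skin and 586 to 606 in the cultures. The part of RNA from other skin cells in the remaining differences was not tested.

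**Figure D4:**
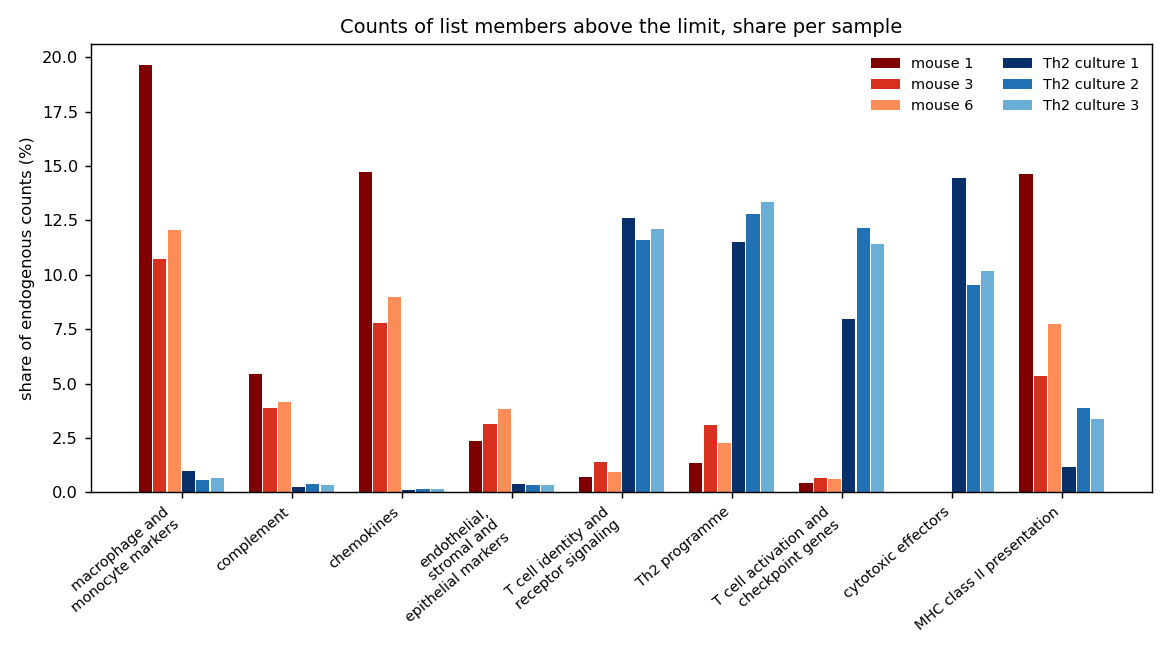
Share of endogenous counts (%, from 0) taken by the members of 9 gene lists that lay above the limit, 1 bar per sample. The macrophage bars stand at 10.7% to 19.6% in skin and the T cell identity bars at 0.717% to 1.39%, against 11.6% to 12.6% for T cell identity in the cultures.

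MHC class II genes are carried by macrophages, dendritic cells and B cells, and mouse T cells make little of them. All 10 were detected in every culture; 5 were called higher in skin and 1, H2-DMb2, lower, with a median of 1.70. H2-Eb1, a β chain, read 4761, 755 and 2290.4 in skin and 119, 387 and 300.4 in culture (log2 fold change 3.27 ± 0.72, adjusted p = 0.00372). H2-Aa, an α chain, read 6039, 902 and 1960.5 against 286, 968 and 821, so that mouse 3 lay within the cultures. The log2 fold change of H2-Aa was 2.09, and it was no longer called without mouse 1 (1.05), culture 1 (1.72) or culture 3 (2.24). Without culture 1, H2-Ab1 and H2-Ea-ps lost their calls too and 2 of the list were higher, and without mouse 6 H2-DMb2 lost its call. With TMM factors 2 of the 10 were called higher and 1 lower. The class I list had 1 higher call in 11 tested members, Psmd7, and a median of 0.05, while with TMM factors none was higher, 6 were lower and the median was −1.37. B2m, the light chain of class I, read 15642, 12364 and 22628 against 24266, 15793 and 16861 and was not called.

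T cell identity genes lay at the opposite end. Of 29 on the panel, 28 were tested, 18 were called lower and 2, Lcp2 and Ikzf2, higher, with a median of −2.73, or −1.54 with undetected genes at their bound. In skin 15 of the 29 were above the limit in no sample, while 28 were above it in all 3 cultures. Members above the limit took 0.717%, 1.39% and 0.915% of endogenous counts in mice 1, 3 and 6 and 11.6% to 12.6% in the cultures. With the experiment as a block 17 were lower and none higher. Lcp2, the adaptor SLP-76, is also used by myeloid cells.

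Cd3e read 58.1, 10.8 and 31.8 in skin, all below the limit, and 1584, 1231 and 1370.1 in culture, at least 12.6-fold lower (adjusted p = 5.01e-05). Lck read 109, 24.7 and 30.6 against 2512, 1710.5 and 1871, at least 18.3-fold lower. Icos, a costimulatory receptor, read 94.4, 15.4 and 36.5 against 4303, 3803 and 4058, at least 36.6-fold lower. No skin value of these 3 genes was above the limit, so the counts set only an upper bound. For Lck the limit corresponded to 11.9%, 1.76% and 2.68% of the culture mean in mice 1, 3 and 6, and for Il2ra to 2.48%, 0.366% and 0.558%.

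Some T cell genes were read in skin at a low level. Thy1, a surface protein of T cells that fibroblasts also carry, read 159.7, 156 and 256 against 5276, 3079 and 3088, above the limit in mice 3 and 6 (log2 fold change −4.31 ± 0.47, adjusted p = 6.11e-05). Cd2, an adhesion receptor of T and natural killer cells, read 159.7, 57.2 and 83.7 against 1438, 1249 and 1194, again above the limit in mice 3 and 6. In these 2 mice Thy1 came to 4.09% and 6.7% of the culture mean and Cd2 to 4.42% and 6.47%. The coreceptor Cd4 read 123, 18.5 and 28.3 against 519, 319 and 399.5 and was below the limit in all 3. Ptprc, the CD45 of all leukocytes, was read in every sample, with 385, 102 and 158 against 1655, 1143 and 1218.

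**Figure D5:**
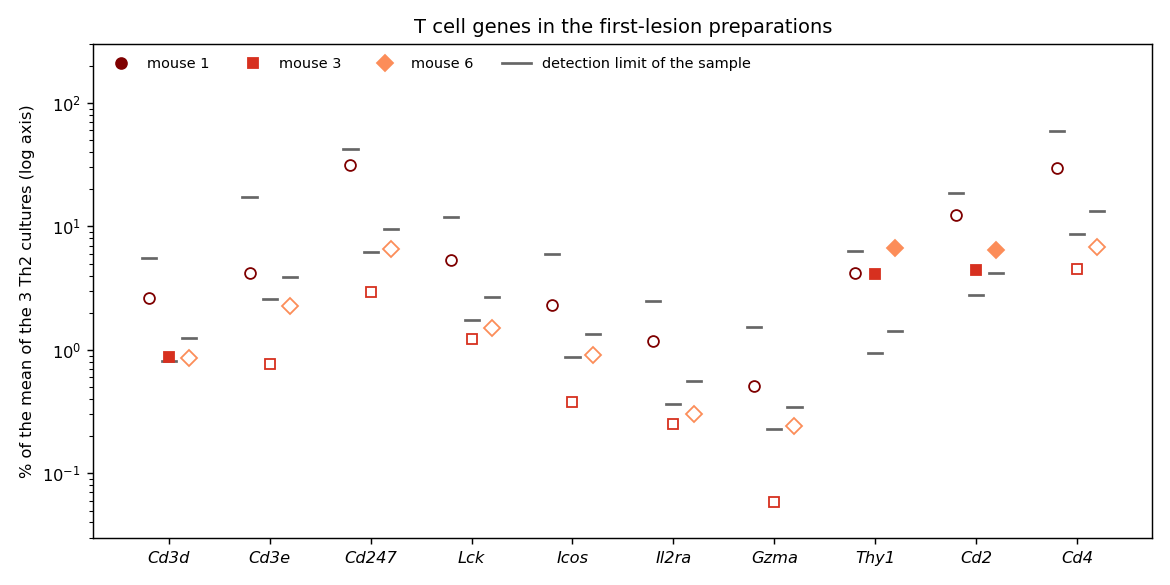
Scaled count of 10 T cell genes in each first-lesion skin preparation as a percentage of the mean of the 3 Th2 cultures (log axis). Filled symbols lay above the sample's detection limit (grey dash), open symbols at or below it; filled symbols are seen for Cd3d in mouse 3 and for Thy1 and Cd2 in mice 3 and 6.

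Genes of activated effector cells were among the largest decreases. Gzma, granzyme A, read 79.8, 9.27 and 37.7 in skin and 22528, 11748 and 12846 in culture, at least 142-fold lower (adjusted p = 5.27e-05). Il2ra, the α chain of the high-affinity IL-2 receptor, read 116, 24.7 and 29.5 against 7479.7, 11122 and 10687, at least 88.1-fold lower. Gzmb, granzyme B, was at least 27.8-fold lower. Tnfrsf8 (CD30), Tnfrsf4 (OX40) and Itgal (the CD11a integrin chain) were at least 9.51-fold, 8.57-fold and 8.28-fold lower, with a highest adjusted p of 0.000109. Granzymes were the only cytotoxic genes called: of 8 tested, Gzma and Gzmb were lower, Prf1, Fasl, Fas, Tnfsf10, Cd8a and Cd8b1 were not called, and the median was 0.52. None of the 9 on the panel was above the limit in any skin preparation. Of the 17 tested activation and checkpoint genes 6 were called lower and 1, Cd44, higher; 19 of the 21 on the panel were above the limit in no skin preparation.

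Of 20 receptors and signaling genes of lymphocyte growth, 11 were called lower and 4 higher, with a median of −1.72. Il4ra, the IL-4 receptor chain, read 319, 154 and 246 in skin, above the limit in all 3, and 4157, 3881 and 4382 in the cultures. Its log2 fold change was −4.13 ± 0.45 (adjusted p = 6.1e-05), and the lowest culture stood far above the highest skin preparation. Il4ra is also made by macrophages and fibroblasts. Il2rb, the chain shared by the IL-2 and IL-15 receptors, read 922, 233 and 283 against 1082, 1159.5 and 1155 and was not called (adjusted p = 0.0624). Il27ra, below the limit in all 3 skin preparations, was at least 6.42-fold lower. The higher calls were Il6ra, Il6st, Il15ra and Socs3, which many cell types make, and 2 of the list were higher with the experiment as a block.

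The Th2 list had 10 of 17 tested genes called lower and 1 higher, with a median of −2.34 and 21 genes on the panel. Il1rl1, the IL-33 receptor, read 210.5, 47.9 and 90.7 in skin, above the limit in mice 3 and 6, and 3649, 2072 and 3135 in culture (log2 fold change −4.77 ± 0.62, adjusted p = 0.000161). Il4 read 58.1, 12.4 and 21.2, below the limit in all 3, against 741, 559.9 and 638, at least 5.83-fold lower. Il10 was at least 6.02-fold lower. The 1 higher call was Ccl24, a chemokine of macrophages.

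The 6 Th2 genes tested and not called were Gata3, Il5, Il13, Il17rb, Maf and Stat6. Gata3, the transcription factor of the lineage, read 740.3, 1423 and 1427 in skin, above the limit in all 3, and 2412, 1934 and 1954 in culture, with a log2 fold change of −0.81 ± 0.40 that was not called (adjusted p = 0.108); with TMM factors it was −1.89 and called. Keratinocytes and other skin cells also make Gata3. The mean of Gata3 in skin was 1197 ± 395 (SD, n = 3). Cd3e, Lck and Il4 were below the limit in the same samples. Which cells held the Gata3 RNA was not tested. Il13 read 210.5, 44.8 and 63.6 in skin against 149.9, 219 and 236 in culture. It was above the limit in mice 3 and 6 only, and there below every culture. Il5 was below the limit in skin and 34.5, 83.9 and 97.6 in culture. Neither was called (adjusted p = 0.147 and 0.091).

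Th1 genes showed no common direction: 5 of 20 tested were called higher and 2 lower, with a median of 0.44. Of the 22 on the panel, 12 were above the limit in no skin preparation, so their level in skin was not measured. With genes at a group's limit set to their bound, the median was 0. With TMM factors 3 were higher and 10 lower, with a median of −1.01. With the experiment as a block 1 was higher, and without culture 1 or without culture 2 there were 3. The higher calls, Ccl3, Ccl4, Ccl5, Ifngr2 and Tnf, are also made by macrophages. Ifng read 50.8, 10.8 and 24.7 in skin and 3.45, 3.18 and 1.49 in culture and was above the limit in no sample. The factor Tbx21 was below the limit in skin and read 11.5, 15.9 and 19.8 in culture. Of 12 tested Th17 and regulatory T cell genes 8 were called lower and 2, Ahr and Nt5e, higher; without mouse 6 there were 4 lower and without culture 1 there were 5. Foxp3, Il17a and Il22 were above the limit in no sample.

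Interferons are read through genes with an interferon-stimulated response element (ISRE) or an interferon-γ-activated site (GAS) in their control regions. Of 11 tested type I interferon-stimulated genes, 3 were called higher and 1 lower, where 37.3% of all tested genes were higher. The median was 0.87, or 0 with genes at a group's limit set to their bound, and −0.42 with TMM factors. With the experiment as a block 1 was higher, without mouse 3 there were 5 and without culture 1 there were 6. Mx1, an antiviral GTPase, read 552, 95.8 and 226 in skin and 25.7, 21.3 and 21.2 in culture (log2 fold change 3.63 ± 0.64, adjusted p = 0.00104). Ifih1, the RNA sensor MDA5, read 276, 105 and 174 against 40.3, 16.9 and 13.8 (2.94 ± 0.59, adjusted p = 0.00223). Ifitm1 was called higher and Pml lower, and Ifitm1 lost its call without mouse 3, mouse 6, culture 2 or culture 3. Irf7 read 218, 41.7 and 91.9 against 66.7, 11.4 and 13.8, overlapped, and was not called. Il28a, an interferon λ gene, was above the limit in no sample.

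Of 12 tested IFN-γ-inducible genes 4 were called higher, Cxcl9, Cxcl10, Irf5 and Cd274, and 1, Socs1, lower. Among all tested genes 37.3% were higher. The median was 0.46, or 0.20 with genes at a group's limit set to their bound. With TMM factors 3 were higher and 7 lower, with a median of −0.99. Cxcl11, Ciita, Nos2 and Fcgr1 were above the limit in no skin preparation. Cd274 lost its call without mouse 1, mouse 6, culture 2 or culture 3. Cxcl10, an attractant of activated T cells, read 254, 100.4 and 267 against 1.53, 1.59 and 1.49, at least 32.1-fold higher (adjusted p = 1.99e-05). Cxcl9, which shares its receptor Cxcr3, read 443, 81.9 and 199 against 9.2, 8.27 and 10.1 (4.66 ± 0.67, adjusted p = 0.000302). Irf5, a transcription factor of myeloid and B cells, read 406, 100.4 and 160.2 against 25.3, 39.1 and 33.5 (2.72 ± 0.57, adjusted p = 0.00297). Socs1, the inhibitor of cytokine receptor kinases, read 203, 46.3 and 97.8 against 1784, 1755 and 1758 (−4.03 ± 0.55, adjusted p = 0.000218), and Irgm1, an IFN-induced GTPase, read 979.9, 192 and 586 against 1075, 439 and 495 and was not called.

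The promoters of 3 of these genes hold the same ISRE core, GAAA and again GAAA after any 2 bases, on either strand, although 1 was called higher, 1 lower and 1 not at all. They are shown for that contrast, from RefSeq on GRCm38.p6, all from the minus strand and read 5′ to 3′, with the core in capitals. Where capitals run on, 2 overlapping cores share bases.
Cxcl10 (chr5:92349083-92349112, 213 bases before the start): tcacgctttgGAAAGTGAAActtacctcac
Socs1 (chr16:10785594-10785629, 83 bases before the start): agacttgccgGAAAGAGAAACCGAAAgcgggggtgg
Irgm1 (chr11:48871425-48871460, 30 bases before the start): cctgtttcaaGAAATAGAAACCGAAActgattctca
Promoters of 300 bases were at hand for 11 of the 15 genes of the IFN-γ list and 9 of the 12 of the type I list. The ISRE core was found in 3 and 4 of them and the GAS core TTCNNNGAA in 3 and 3, where 3.44% and 8.3% of all 32851 promoters hold them. A match describes the letters and not a site in use.

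Mouse 1 had the highest limit. Without it 284 genes were called, 167 higher and 117 lower, and 230 of the 237 kept their call and direction. Culture 1 was the only culture of experiment 1, like the skin preparations. Against it alone 152 genes were called, 104 higher and 48 lower, with the 1 culture taken to vary like the skin samples. There, the macrophage list had 18 of 21 tested genes called higher and 1 lower, and the T cell identity list 15 of 28 lower and none higher. Th2 culture 1 also differed from cultures 2 and 3 in H2-DMb2, a chain of the class II peptide loader, which read 121 in culture 1 and 404 and 386 in the others, against values below the limit in skin.

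The 3 preparations of flares were compared with the same cultures elsewhere in the design, and their values stand beside those of the first lesions as a description. They are labelled mouse 1 and mouse 2 of experiment 1 and mouse 12 of experiment 2, so that mouse 1 of experiment 1 names both a first-lesion and a flare sample. In this order Ccl8 read 7209, 8497 and 14590.0 in flares, and Tyrobp 1482, 1813 and 3791. Cd3d read 123, 100.4 and 61.1, below the limit in all 3. Il4ra read 540.3, 428 and 434, each above every first-lesion value. Cxcl9 read 100.3, 100.4 and 80.4, above the limit in mouse 12 only. The limits of these 3 preparations were 134.6, 158.9 and 66.0.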

How the data were processed

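The series table held raw counts per probe for 12 samples, as the authors deposited them from a NanoString mouse immunology panel; no background subtraction or scaling had been applied (the lowest count was 1). The authors used Qiagen RNeasy for RNA and Rosalind software for their own analysis. Here, counts were scaled by a factor per sample, the geometric mean of 7 housekeeping genes (those detected in all 12 samples) relative to its mean over the samples, so that low RNA input raises a sample's background as well as its signal. The limit was the mean plus 2 SD of the 8 negative controls. Genes above it in at least 3 of the 6 samples (397 of 547) were tested with edgeR 4.0.16 in R 4.3.3 (glmQLFit and glmQLFTest, the scaling as offset), with Benjamini-Hochberg adjustment over all tested genes at 0.05; the procedure was tested on simulated data. The methods of the study name a two-tailed Student's test, which was run as an alternative, with limma 3.58.1 and DESeq2 1.42.0 among others. Counting error alone is smallest in the cultures, where totals were largest.

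The text names, in each direction, the 10 largest changes among called genes whose groups did not overlap and which were above the limit in all 3 samples of the higher group, the genes that the study discusses, Ccl8, Tyrobp, Il4ra and Cd3d, and the 4 largest changes of each list. Further list members were named after their values were seen, and some genes are not reported here. The members, lists and tests were chosen with earlier results of these data known. Gene symbols are those of the panel; 537 of 547 accessions matched RefSeq (GRCm38.p6). Replicate samples differed by more than counting noise in every pair. Replicate numbers do not pair skin with cultures; the experiment number was used as a block.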

Additional observations from a re-analysis of the deposited data

How the results depend on the processing

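Leaving out each sample in turn gave 197 to 284 called genes, 131 to 175 higher and 66 to 117 lower. Genes called lower numbered 179 with TMM factors, 184 with DESeq2 size factors and 138 with limma after subtraction of the negative control mean; the median log2 fold change of all tested genes then turned to −0.74, −0.77 and −0.61. The log2 ratio of summed macrophage markers was 4.15, and 2.66 and 2.59 with TMM and DESeq2 factors. Without the filter 264 genes were higher. The methods' t-test gave 188 genes (95 higher) at an unadjusted p under 0.05 and 119 (47 higher) after Benjamini-Hochberg adjustment. Experiment 1 alone gave 152 genes, 48 of them lower, and the experiment as a replicate block 172, of which 102 were higher and 70 lower. Restricted to the 122 genes above the limit in all 6 samples, an alternative chosen after seeing the data, 82 were called, 65 higher and 17 lower. With the Cd3 chains as reference, 382 were called, 377 higher and 5 lower, but 8 of the 9 skin values of these chains lay at or below the limit; this reference was run for these counts only.

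Of the 397 tested genes, 101 differed in sign in at least 1 of the 5 scalings, and 13 of the 101 were called in the reported test. Signs turned for few of the named genes, which were chosen in part for large changes. With TMM factors Cd83 was −0.22, Eomes −0.53, Fasl −0.37, Psmd7 −0.22, Tbx21 −1.06 and Tnfsf10 −0.51, and with DESeq2 factors Cd83 was −0.24, Eomes −0.63, Fasl −0.42, Psmd7 −0.22, Tbx21 −1.10 and Tnfsf10 −0.59. After background subtraction Eomes was −1.89, Fasl −1.16, Ifit2 −0.67, Tbx21 −2.28 and Tnfsf10 −1.54. Leaving out 1 sample at a time, Eomes ranged from −0.58 to 1.86 and Tbx21 from −0.58 to 1.03, both lowest without mouse 1. H2-Q10 was 0.22 in experiment 1 alone and 0.087 with the block, and Cd69 was 0.048 in the t-test and from −0.79 to 0.15 with 1 sample left out: 0.024 without mouse 3, 0.15 without mouse 6 and 0.086 without culture 1. Of these, Cd83 and Psmd7 were called in the reported test. Eomes, Fasl, Ifit2, Tbx21, Tnfsf10, H2-Q10 and Cd69 were above the limit in no skin preparation. The cause was not tested. The high limit of mouse 1 restricts what can be said of genes low in skin.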

Other observations

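The housekeeping genes used for scaling did not keep 1 ratio to each other. In scaled counts G6pdx read 581, 678 and 508 in mice 1, 3 and 6 and 153, 154 and 161 in Th2 cultures 1, 2 and 3. Ppia read 3375, 4219 and 3758 against 8454, 7937 and 9020, so that the groups stood in the opposite order. Gapdh read 8333, 4199 and 5709 against 9953, 11739 and 10346. The sums of the positive controls, which are added to each reaction, were 133387, 76757 and 135552 counts in skin and 31322, 32125 and 28205 in culture.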
